A study of Mus musculus with 16 samples.

Results

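The genes described here are 8 immediate early genes of mouse, namely Egr1, Egr2, Egr3, Nr4a1, Nr4a2, Nr4a3, Ier2 and Ier3. They were taken by gene symbol, or by Ensembl identifier in the MEF Oct4 library, and all 8 were found among the 20325 genes of the other 12 libraries. The study asked how c-Jun, a subunit of the transcription factor AP-1, moves embryonic stem cells (ESC) towards differentiation, and why it blocks reprogramming of embryonic fibroblasts (MEF) while c-JunDN and Jdp2 can stand in for Oct4. RNA was sequenced in 13 libraries with 1 library per group, so no difference below has a replicate check. Each interval given is a 95% interval for counting error only.

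The 3 ESC libraries were a c-Jun TetOn line given doxycycline (dox) for 36 h, the same line without dox, and wild-type (WT) OG2 ESC, all at passage 5. Neither ESC control is labelled as given dox, so the drug and c-Jun cannot be told apart. The 6 MEF libraries were OG2 fibroblasts at passage 2 overexpressing c-Jun, c-JunDN, Jdp2, Oct4 or DR, and WT MEF. The 4 KSM libraries were OG2 MEF on day 3 after virus with Klf4, Sox2 and c-Myc (KSM), together with Oct4, c-JunDN, Jdp2 or DR. DR, which the labels do not spell out, stands in the place of the added factor and is the matched control for MEF and KSM cells. The strain label names 129SVJ, C57B6 and CBA in all groups, and OG2 cells carry a green fluorescent reporter of Oct4 expression. The labels do not give the vector, the harvest time of the MEF libraries or how many lines or embryos stood behind each library.

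Immediate early genes are transcribed within minutes of a stimulus such as serum or a growth factor, from factors already in the cell, and their transcripts are short-lived. Egr1, Egr2 and Egr3 encode zinc finger transcription factors that bind GC-rich sites. Nr4a1, Nr4a2 and Nr4a3 encode orphan nuclear receptors that are active without a known ligand. Ier2 encodes a small nuclear protein, and Ier3 a stress-induced protein that is known to influence cell survival and ERK signalling. In fibroblasts these genes are classically induced by serum through SRF and its partners at CArG boxes and through CREB at TGACG half-sites. AP-1, the dimer of Jun and Fos or ATF proteins, is itself made from immediate early genes. The pattern TGANTCA, which covers the common site of its Jun and Fos dimers, was the one searched. Other sites that AP-1 dimers can bind were not assigned here.

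The promoters of the 3 Nr4a genes carry the CREB half-site in clusters, and they are shown beside that of Ier3, which carries none. RefSeq promoter entries on GRCm38.p6 were matched for 5 of the 8 genes, namely Egr2, Nr4a1, Nr4a2, Nr4a3 and Ier3, and the 250 bases before each start were searched. Windows of Egr1, Egr3 and Ier2 were not searched. Any entry for Egr1 was left out by a filter on its chromosome, and none was matched for Egr3 and Ier2. In the sequences below, written 5′ to 3′ on the gene's strand, capitals mark TGACG or its complement CGTCA. The windows are chr15:101266596-101266845 (plus strand, Nr4a1), chr2:57124004-57124253 (minus strand, Nr4a2), chr4:48045055-48045304 (plus strand, Nr4a3) and chr17:35821463-35821712 (plus strand, Ier3).
Nr4a1: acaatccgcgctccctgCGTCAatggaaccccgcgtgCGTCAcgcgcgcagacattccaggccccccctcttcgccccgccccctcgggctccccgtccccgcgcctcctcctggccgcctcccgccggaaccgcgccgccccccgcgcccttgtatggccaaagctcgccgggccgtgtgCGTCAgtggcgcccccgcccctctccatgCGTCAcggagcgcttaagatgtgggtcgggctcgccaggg
Nr4a2: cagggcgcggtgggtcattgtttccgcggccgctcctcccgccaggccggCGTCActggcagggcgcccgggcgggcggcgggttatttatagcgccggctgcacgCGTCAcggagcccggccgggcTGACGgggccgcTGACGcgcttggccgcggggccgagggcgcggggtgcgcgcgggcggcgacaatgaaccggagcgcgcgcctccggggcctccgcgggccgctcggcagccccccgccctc
Nr4a3: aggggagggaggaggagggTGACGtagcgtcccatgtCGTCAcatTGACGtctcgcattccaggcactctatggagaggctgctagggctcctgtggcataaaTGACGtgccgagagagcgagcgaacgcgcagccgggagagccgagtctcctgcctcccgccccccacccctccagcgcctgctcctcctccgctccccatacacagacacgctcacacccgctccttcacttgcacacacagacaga
Ier3: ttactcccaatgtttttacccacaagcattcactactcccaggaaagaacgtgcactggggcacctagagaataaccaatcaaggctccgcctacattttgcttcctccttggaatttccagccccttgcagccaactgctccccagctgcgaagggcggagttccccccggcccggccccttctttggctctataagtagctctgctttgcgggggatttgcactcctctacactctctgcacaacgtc

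The windows of Nr4a1, Nr4a2 and Nr4a3 each held 4 matches to TGACG on either strand. Egr2 windows held 0 or 2, and at chr10:67537619-67537868 the 2 matches began 111 and 55 bases before the start. Among 32851 promoter windows of the same length, 17.8% held at least 1 match, and 45 windows (0.137%) held at least 4. In Nr4a1 all 4 matches lay inside the longer motif TGCGTCA, beginning 235, 215, 71 and 42 bases before the start. TGCGTCA was found in 1.75% of windows, and the Nr4a1 window was the only one with at least 4 matches (1 window, 0.00304%). Of the 5 Egr2 windows, which overlap in part, 4 held 1 CArG box, and these were 2 distinct boxes in the genome; the motif was found in 1.47% of all windows. The motif TGANTCA of Jun and Fos dimers, found in 6.75% of windows, was in no window of these 5 genes. The full CREB site TGACGTCA, found in 1.55% of windows, was in none of them either. A match in this window is a stretch of letters, and a match or the lack of one says nothing of binding by CREB or any AP-1 dimer.

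Transcripts of the introduced factors were raised where the labels place them. Jun reached 2171 CPM (TMM-scaled counts, relative to the library total) in ESC with dox, against 23.2 CPM without, and 12855 and 4192 CPM in MEF with c-Jun and c-JunDN, against 94.2 CPM with DR. Expected counts summed to 1896522 to 3440958 in 11 libraries, while WT ESC had 12173140 and WT MEF 21415028, so 3 counts stood for 0.905 to 1.61 CPM in the 11 libraries and for under 0.3 CPM in the WT ones. All 6 fibroblast markers were detected in every MEF library, at summed levels of 11272 to 56595 CPM. They summed to 1231 to 2050 CPM in KSM cells. All 6 ESC markers were detected in the 3 ESC libraries, at 1178 CPM with dox, 6098 CPM without and 4539 CPM in WT ESC. In bulk RNA, fewer cells of a type and less RNA per cell cannot be told apart.

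Set per transcript length, the 8 genes together made up 82.1 to 351.3 TPM (relative transcript abundance, from the authors' RSEM values). Egr1 led in Jdp2 MEF, with 42.3% of the summed level, in WT MEF, with 52.8%, and in WT ESC, with 44.9%. It also led in c-JunDN MEF, with 39.0%, and in the control DR MEF, with 36.5%. Ier2 led in ESC without dox, with 76.4% of the sum, where Egr1 held 0.230%. Ier3 led in c-Jun MEF, with 66.3% of the sum, where Egr1 held 6.83%. The 4 KSM libraries were led by Ier2, or in Jdp2 KSM cells by Ier3 at 46.5 TPM beside Ier2 at 46.0 TPM.

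**Figure D1:**
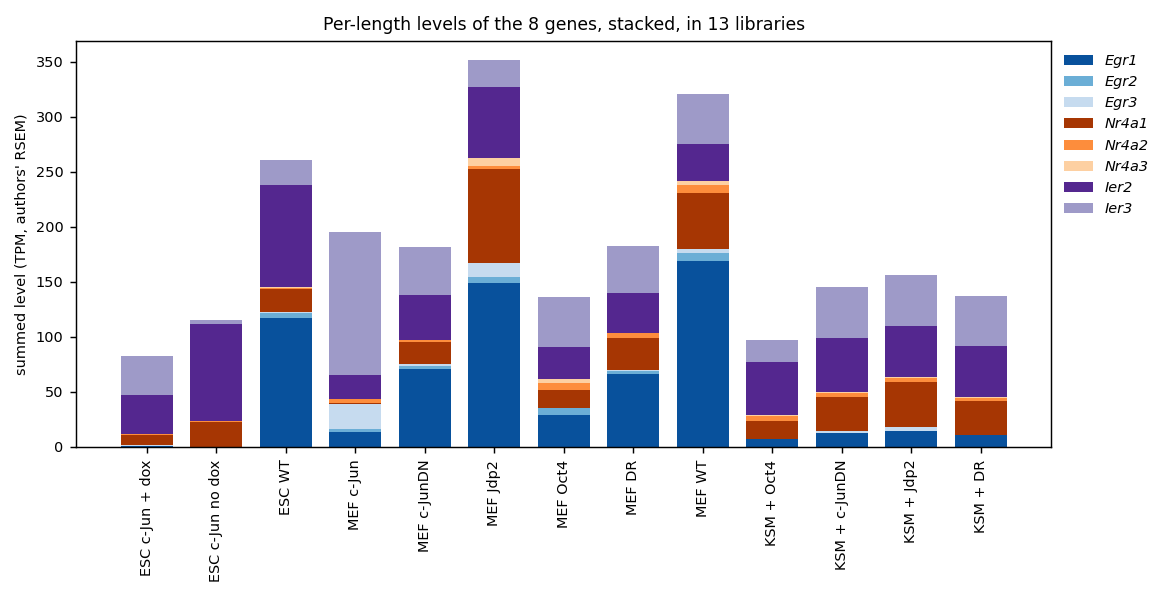
Summed level of the 8 genes in TPM (linear axis) in each of the 13 libraries, with 1 coloured segment per gene. Jdp2 MEF held the highest sum, at 351.3 TPM, and ESC with dox the lowest, at 82.1 TPM, while Ier3 made up 66.3% of the sum in c-Jun MEF.

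Egr1 spanned the widest range of CPM among the 8 genes. It stood at 1.10 CPM in ESC with dox, 0.493 CPM without dox and 199.8 CPM in WT ESC. In MEF, Egr1 stood at 19.9 CPM with c-Jun, 103.2 CPM with c-JunDN, 208.9 CPM with Jdp2 and 41.4 CPM with Oct4, against 98.3 CPM with DR and 259.1 CPM in WT MEF. In KSM cells it stood at 11.8 CPM with Oct4, 20.2 CPM with c-JunDN and 21.8 CPM with Jdp2, against 18.0 CPM with DR. Egr1 thus formed steps, with WT MEF on top, Jdp2 MEF and WT ESC next with overlapping counting intervals, c-JunDN and DR MEF below them with overlapping intervals, then Oct4 MEF. The KSM cells given Jdp2, c-JunDN and DR and the c-Jun MEF followed at 18.0 to 21.8 CPM without a difference beyond their intervals, and Oct4 KSM cells, at 11.8 CPM, had an interval (8.37 to 16.1) that overlapped those of DR and c-JunDN KSM cells and c-Jun MEF. The TetOn ESC line was last.

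Egr2, which is also known for its role in hindbrain patterning and myelination, stood at 3.76 CPM in c-Jun MEF, 3.47 CPM in c-JunDN MEF and 8.01 CPM in Jdp2 MEF, against 3.60 CPM in DR MEF and 10.6 CPM in WT MEF. WT ESC held 8.13 CPM. The counting intervals of these 3 highest libraries overlapped. It had 0 counts in ESC without dox and in KSM cells with Oct4, c-JunDN and DR. The gene model of Egr2 in the Oct4 MEF library was 533 bases long, against 2960 bases implied in the other libraries, so its 3 counts there cannot be compared directly with the other libraries.

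Egr3 differed from Egr1 and Egr2 in where it was highest. It stood at 15.6 CPM in c-Jun MEF (29 counts), 1.30 CPM in c-JunDN MEF (3 counts), 8.01 CPM in Jdp2 MEF (15 counts) and 0 in Oct4 MEF, against 0.515 CPM in DR MEF (1 count) and 2.54 CPM in WT MEF (39 counts). Among KSM cells, those given Oct4 had 0 counts, those given c-JunDN 3 and those given Jdp2 6, against 0 with DR. The c-Jun MEF was therefore at the top for Egr3 and below all other MEF libraries for Egr1.

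Nr4a1, the member best known for induction by antigen receptor and growth factor signals, was highest in Jdp2 MEF at 96.7 CPM and lowest in c-Jun MEF at 1.61 CPM, where it had 3 counts. The other MEF libraries held 23.4 CPM with c-JunDN and 18.6 CPM with Oct4, against 35.0 CPM with DR and 62.9 CPM in WT MEF. ESC held 10.2 CPM with dox, 33.5 CPM without and 28.9 CPM in WT ESC. KSM cells held 22.0 CPM with Oct4, 38.7 CPM with c-JunDN and 49.95 CPM with Jdp2, against 40.8 CPM with DR. Nr4a1 was thus lowest of the ESC libraries and lowest of the MEF libraries where c-Jun was introduced.

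Nr4a2, which is needed for midbrain dopamine neurons, was low throughout, at 1.48 to 2.32 CPM in ESC, 2.60 to 11.4 CPM in MEF and 3.60 to 8.45 CPM in KSM cells. WT MEF was highest, and the counting intervals of neighbours in the order overlapped. Nr4a3 had 0 counts in c-Jun MEF and in both libraries of the c-Jun TetOn ESC line. It stood at 5.88 CPM in Jdp2 MEF (11 counts) and 2.73 CPM in WT MEF (42 counts), against 0.515 CPM in DR MEF (1 count). Its Oct4 MEF value of 7.97 CPM (15 counts) rests on a gene model of 5025 bases, against 1877 bases implied in the other libraries, and cannot be compared directly with them.

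Ier2 and Ier3 were detected in every library and ran in opposite directions in several. Ier2 stood at 24.5 CPM in ESC with dox, against 80.8 CPM without dox and 77.1 CPM in WT ESC, its highest levels. In MEF it stood at 16.6 CPM with c-Jun, 29.0 CPM with c-JunDN, 44.9 CPM with Jdp2 and 20.7 CPM with Oct4, against 26.2 CPM with DR and 25.8 CPM in WT MEF. The 4 KSM libraries lay between 34.8 and 40.4 CPM with overlapping intervals. Ier3 stood at 17.5 CPM in ESC with dox, 2.46 CPM without dox and 13.3 CPM in WT ESC. In MEF it stood at 68.2 CPM with c-Jun, 22.5 CPM with c-JunDN, 12.3 CPM with Jdp2 and 23.4 CPM with Oct4, against 22.1 CPM with DR and 24.3 CPM in WT MEF. In KSM cells it held 11.8 CPM with Oct4, 25.5 CPM with c-JunDN and 25.2 CPM with Jdp2, against 26.0 CPM with DR. The c-Jun MEF was thus the highest of 13 libraries for Ier3 and the lowest for Ier2.

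**Figure D2:**
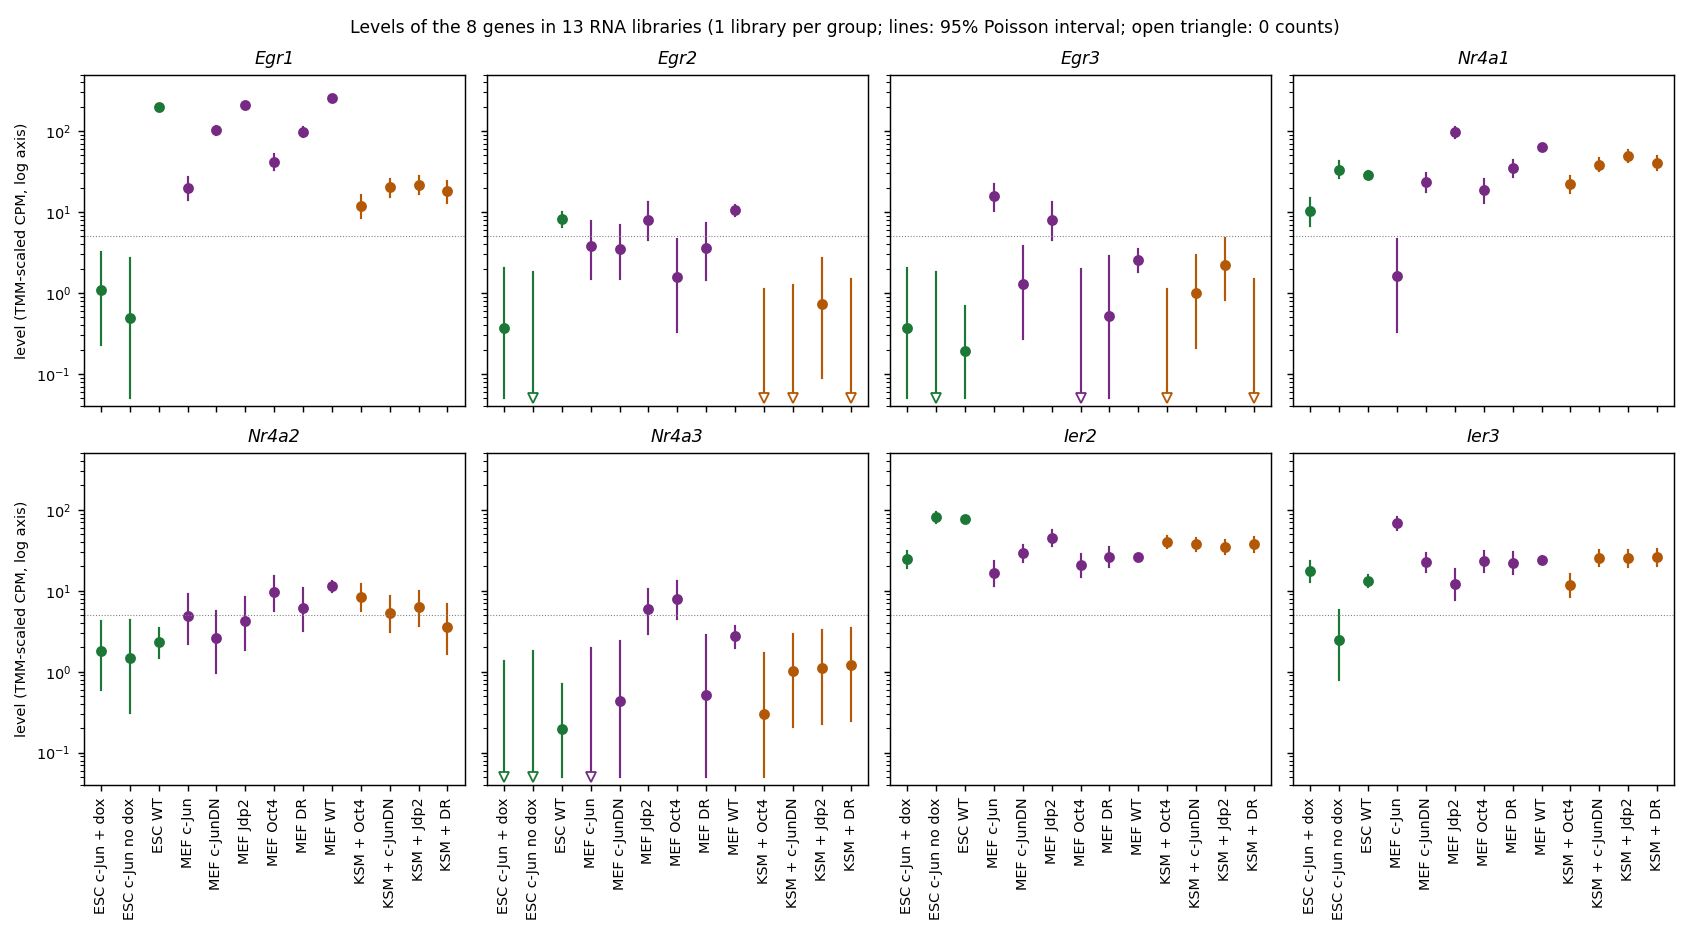
Level of each gene (CPM, log axis) in the 13 libraries, 1 point per library, with the 95% Poisson interval as a line and an open triangle at 0 counts. The dotted line marks 5 CPM, and Egr1 ranges over 0.493 to 259.1 CPM while Ier2 stays at 16.6 to 80.8 CPM.

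Induction of c-Jun in ESC was set against the same line without dox. Ier3 was higher and Nr4a1 and Ier2 were lower with dox, while the Egr genes were at or near 0 on both sides. A gene counted as measured if either of the 2 libraries reached 5 CPM, and as higher or lower from 2-fold on log2(CPM + 1), a scale that understates the change of low genes. By this rule 3 of the 8 genes were measured, 1 higher and 2 lower, where 21.3% of all measured genes were higher and 19.7% lower. A gene under 5 CPM in 1 library, as Ier3 was without dox, is measured only through the library where it is higher. The same holds in each comparison below. The median log2 change was -1.62 over the 3 genes and -0.09 over all. Ier3 was 7.11-fold higher (2.85 to 22.9), on 48 and 5 counts. Nr4a1 was 3.28-fold lower (2.08 to 5.29), and Ier2 3.30-fold lower (2.47 to 4.46). Egr1 had 3 counts with dox and 1 without. On the TPM scale the median of all genes was 0.29, and 72.5% of all genes past 2-fold were higher, against 52.0% on the CPM scale, while these 3 genes kept their directions. The 4 keratinocyte markers summed to 467.4 CPM with dox (Trp63 at 0), against 22.2 CPM without (Krt5 and Krt14 at 0). The 6 macrophage markers summed to 123.4 CPM with dox, 3 of them detected, against 12.3 CPM without, 1 of them detected. Their part in these differences was not tested.

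The TetOn line without dox differed from WT ESC most in Egr1. Egr1 had 1 count without dox, against 2064 counts in WT ESC, which made it 405-fold lower (72.7 to 16014). Egr2 had 0 counts, against 84, and was at least 5.50-fold lower against a floor of 3 counts. Ier3 was 5.38-fold lower (2.25 to 16.8), and Nr4a1 and Ier2 were within 1.16-fold and 1.05-fold of WT ESC. In all, 3 of 5 measured genes were lower and 0 higher, where 18.3% of all measured genes were lower and 6.32% higher. The lower genes, Egr1, Egr2 and Ier3, were below 5 CPM without dox. They were measured only through WT ESC and could only be called lower. With dox, 4 of 5 measured genes were lower than in WT ESC and 0 higher, where 23.1% of all measured genes were lower and 14.6% higher. Egr1 and Egr2 were again measured only through WT ESC. Egr1 was still 182-fold below WT ESC (62.3 to 885.0), and Ier3 was 1.32-fold above it (0.93 to 1.85). The line, its culture and its depth cannot be told apart here. Fibroblast markers summed to 541.1 CPM in ESC with dox, 26.1 CPM without dox and 1299.8 CPM in WT ESC. The WT ESC value was 2.30% of that in WT MEF, while Egr1 in WT ESC was 77.1%, Egr2 76.7%, Egr3 7.63% and Nr4a3 7.09% of the WT MEF level. The part of fibroblast RNA in the WT ESC values was not tested.

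In MEF, c-Jun was accompanied by lower Egr1 and Nr4a1 and higher Egr3 and Ier3 than DR. Of 6 measured genes 2 were higher and 2 lower, where 8.22% of all measured genes were higher and 9.69% lower. The median log2 change was -0.46 over the 6 genes and 0.02 over all. Nr4a1 was 21.7-fold lower (7.12 to 107.9), on 3 and 68 counts. Egr1 was 4.95-fold lower (3.46 to 7.24), on 37 and 191 counts. Egr3 was 30.3-fold higher, a ratio against 1 count with an interval of 5.02 to 1236, and was measured only through c-Jun MEF. Ier3 was 3.08-fold higher (2.17 to 4.46), on 127 and 43 counts, and Ier2 stood 1.58-fold lower (0.99 to 2.55), inside the 2-fold limit. Against the deeper WT MEF library, 2 of 7 measured genes were higher and 4 lower, where 11.4% of all measured genes were higher and 13.5% lower. There Egr1 was 13.0-fold lower, Nr4a1 39.0-fold lower, Egr3 6.14-fold higher (3.66 to 10.2) and Ier3 2.81-fold higher (2.28 to 3.45). Egr2 and Nr4a2 were also lower than in WT MEF, at 2.82-fold (1.34 to 7.12) and 2.35-fold (1.21 to 5.24). The fibroblast markers summed to 13701 CPM with c-Jun, against 31767 CPM with DR, and the 6 macrophage markers to 138.6 CPM with c-Jun, against 87.0 CPM with DR, with Ptprc at 0 in c-Jun MEF. Their part in these differences was not tested.

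The directions of Nr4a1 and Ier3 were the same in both cell types that received c-Jun. The log2 change of Nr4a1 was -1.62 in ESC and -3.78 in MEF, and that of Ier3 was 2.42 in ESC and 1.58 in MEF. Ier2 was past the limit in ESC, at -1.68, and stood at -0.63 in MEF. These comparisons share no library. The difference between cell types has no test. The ESC change of Ier3 rests on 5 counts without dox. With WT ESC as control, the log2 change in ESC with dox was 0.38 for Ier3, inside the limit, and -1.42 for Nr4a1.

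c-JunDN, a dominant-negative form of c-Jun, gave values close to DR in MEF. Of 5 measured genes 0 were higher and 0 lower, where 3.28% of all measured genes were higher and 2.85% lower. Egr1 was 1.05-fold higher (0.86 to 1.28), and Nr4a1 1.49-fold lower (1.03 to 2.18). Nr4a2, on 6 and 12 counts, was 2.37-fold lower (0.82 to 7.71), and its change of -0.99 on log2(CPM + 1) was just inside the limit. Against WT MEF, 4 of 6 measured genes were lower with c-JunDN (Egr1, Egr2, Nr4a1 and Nr4a2) and 0 higher, where 11.3% of all measured genes were lower and 10.5% higher. Set directly against c-JunDN MEF, 2 of 5 measured genes were higher and 2 lower in c-Jun MEF, where 8.27% of all measured genes were higher and 10.1% lower. This comparison was not among those planned, and Egr3 was measured only through c-Jun MEF and Nr4a1 only through c-JunDN MEF. There c-Jun MEF held 12.0-fold more Egr3 (3.71 to 61.4, on 3 counts in c-JunDN MEF), 5.19-fold less Egr1 (3.66 to 7.55), 14.5-fold less Nr4a1 (4.71 to 72.6) and 3.03-fold more Ier3 (2.18 to 4.26). The Jun transcript itself was 12855 CPM with c-Jun, against 4192 CPM with c-JunDN.

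Jdp2, a repressor that dimerises with Jun proteins, was the factor with the most of these genes above DR in MEF. All 8 genes were measured, 4 were higher and 0 lower, where 5.98% of all measured genes were higher and 6.37% lower. Egr2, Egr3 and Nr4a3 were below 5 CPM with DR, so they were measured only through the library where they stood higher. The higher count includes Egr3 and Nr4a3, and the median below includes all of them. The median log2 change was 1.02 over the 8 genes and 0.00 over all. Nr4a1 was 2.76-fold higher (2.08 to 3.71), on 181 and 68 counts, and Egr1 2.13-fold higher (1.78 to 2.54), on 391 and 191 counts. Egr3 was 15.6-fold higher (2.40 to 655.6) and Nr4a3 11.4-fold higher (1.66 to 491.6), each against 1 count, and with a minimum of 20 CPM the higher count was 2. Egr2 stood 2.22-fold higher (0.85 to 6.45), Ier2 1.71-fold higher (1.19 to 2.47) and Ier3 1.80-fold lower (1.06 to 3.13), none past the limit. The fibroblast markers summed to 25050 CPM with Jdp2, against 31767 CPM with DR, and the macrophage markers to 33.7 CPM, against 87.0 CPM.

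The choice of control mattered for Jdp2. DR MEF held 2.64-fold less Egr1 (2.28 to 3.06) and 2.94-fold less Egr2 (1.40 to 7.44) than WT MEF, so Egr1 in Jdp2 MEF, though above DR, was 1.24-fold below WT MEF (1.12 to 1.38). Nr4a1 in Jdp2 MEF was 1.54-fold above WT MEF (1.30 to 1.80), and Egr3 3.16-fold above it (1.62 to 5.86). Nr4a3 was 2.15-fold above WT MEF (0.999 to 4.25) and did not pass the limit. Nr4a2 was 2.66-fold below it (1.32 to 6.27). Against WT MEF, 1 of 8 measured genes was thus higher with Jdp2 and 1 lower, where 12.2% of all measured genes were higher and 14.5% lower. In DR MEF as a whole, 2 of 6 measured genes were lower than in WT MEF and 0 higher, where 10.6% of all measured genes were lower and 9.79% higher. The c-Jun, c-JunDN, Jdp2 and Oct4 comparisons share the DR library, so their values are set side by side and their likeness is not a result.

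Set directly against Jdp2 MEF, c-Jun MEF held Nr4a1, Nr4a3 and Egr1 transcripts at lower levels, in a comparison that does not use DR. This comparison was not among those planned. Of the 13 libraries, Jdp2 MEF was highest and c-Jun MEF lowest for Nr4a1, so a wide gap in Nr4a1 follows from the choice of the pair. Of 7 measured genes 1 was higher and 4 lower, where 12.1% of all measured genes were higher and 12.7% lower. Below 5 CPM in c-Jun MEF, Nr4a1, Nr4a3 and Egr2 were measured only through Jdp2 MEF, and the lower count includes Nr4a1 and Nr4a3. Nr4a1 was 60.0-fold lower (20.2 to 293.7), Egr1 10.5-fold lower (7.49 to 15.2) and Ier2 2.70-fold lower (1.77 to 4.21). Nr4a3, with 0 counts in c-Jun MEF against 11 in Jdp2 MEF, was at least 3.65-fold lower. Ier3 was 5.55-fold higher (3.54 to 9.07), and Egr3 stood 1.94-fold higher (1.01 to 3.90), inside the limit.

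**Figure D3:**
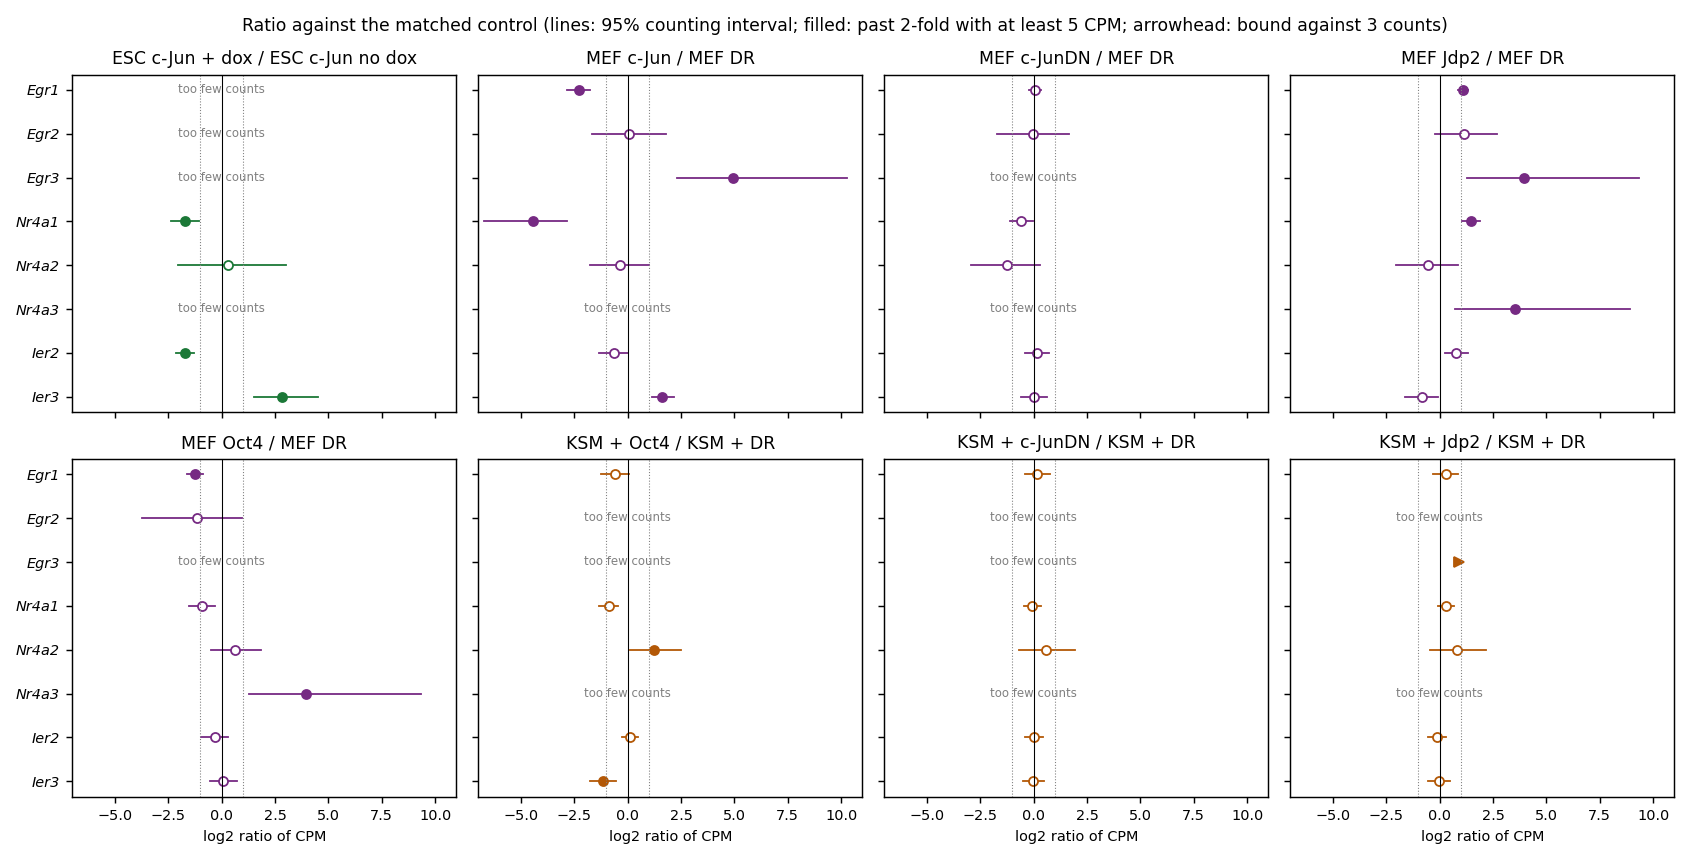
Ratio of CPM on a log2 axis in the 8 comparisons with the matched control, 1 point per gene with its 95% counting interval. Filled points passed 2-fold on log2(CPM + 1) and reached 5 CPM on a side. The arrowhead is a bound against 3 counts. Dotted lines mark 2-fold of the plotted CPM ratio, so an open point can lie past them. In c-Jun MEF, Egr1 and Nr4a1 lie left of 0 and Egr3 and Ier3 right of it, and in Jdp2 MEF Egr1, Egr3, Nr4a1 and Nr4a3 lie right of 0.

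Oct4 in MEF gave lower Egr1. It was 2.37-fold lower than with DR (1.81 to 3.13), and Nr4a1 stood 1.88-fold lower (1.23 to 2.92), inside the limit. Of 6 measured genes 1 was higher and 1 lower, where 11.6% of all measured genes were higher and 10.2% lower. The higher one was Nr4a3, whose gene model differs in that library, and among the 6 genes with matching models 0 were higher and 1 lower. On the TPM scale the median of all genes was 0.20, and 67.6% of all genes past 2-fold were higher, against 53.1% on the CPM scale, and Egr1 was still lower. Against WT MEF, 1 of 7 measured genes was higher, again Nr4a3, and 3 lower (Egr1, Nr4a1 and Egr2, the last also on a gene model that differs), where 14.6% of all measured genes were higher and 14.8% lower. With matching models, 0 were higher and 2 lower than in WT MEF. The 6 macrophage markers, all detected, summed to 245.0 CPM with Oct4, against 87.0 CPM with DR, and the fibroblast markers to 11272 CPM, against 31767 CPM.

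In KSM cells on day 3, Oct4 was the added factor with genes past the limit. Of 5 measured genes 1 was higher and 1 lower, where 4.74% of all measured genes were higher and 6.8% lower. Nr4a2 was 2.35-fold higher (1.08 to 5.65), on 28 and 9 counts, and Ier3 2.21-fold lower (1.46 to 3.38), on 39 and 65 counts. Nr4a2 was below 5 CPM with DR, and it was not past the limit with DESeq2 size factors or on the TPM scale. Nr4a1 stood 1.85-fold lower (1.36 to 2.54) and Egr1 1.53-fold lower (0.97 to 2.41). With c-JunDN, 0 of 5 measured genes were higher and 0 lower, where 1.69% of all measured genes were higher and 1.75% lower. With Jdp2 the counts were also 0 of 5 in each direction, where 3.13% were higher and 1.34% lower. There Egr1 stood 1.21-fold higher (0.81 to 1.83) and Nr4a1 1.22-fold higher (0.94 to 1.60). Egr3, with 6 counts against 0, was at least 1.85-fold higher. Transcripts of each added factor stood lower in KSM cells than in MEF. Jdp2 itself held 401.5 CPM, against 7725 CPM in MEF. With c-JunDN, Jun held 376.9 CPM, against 4192 CPM in MEF. With Oct4, its gene Pou5f1 held 1854 CPM, against 10353 CPM in MEF on Ensembl gene models.

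KSM cells with DR, which carry Klf4, Sox2 and c-Myc, were set against MEF with DR. Egr1 was 5.46-fold lower in the KSM cells (3.93 to 7.74), and Egr2, with 0 counts against 7, was at least 3.00-fold lower. Of 5 measured genes 1 was lower and 0 higher, where 19.9% of all measured genes were lower and 18.7% higher. Nr4a1 was 1.17-fold higher (0.85 to 1.61) and Ier3 1.17-fold higher (0.79 to 1.77). The fibroblast markers summed to 1231 CPM in the KSM cells, against 31767 CPM in MEF, and their part was not tested.

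WT MEF and WT ESC, the deepest libraries, differed in Nr4a1, Nr4a2 and Ier2. Nr4a1 was 2.17-fold higher in WT MEF (1.91 to 2.48), Nr4a2 4.90-fold higher (3.19 to 7.85) and Ier2 2.99-fold lower (2.65 to 3.38). Of 6 measured genes 2 were higher and 1 lower, where 23.9% of all measured genes were higher and 30.1% lower. Egr1 stood 1.30-fold higher (1.23 to 1.37). Egr3 and Nr4a3 had 39 and 42 counts in WT MEF, against 2 each in WT ESC, and stayed below 5 CPM in both.

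The cofactors of the EGR proteins were counted next. Nab1 and Nab2 encode corepressors that bind EGR proteins, and Nab2 is itself a known EGR target; Egr4 did not reach 5 CPM in any matched comparison. Nab2 stood at 43.0 CPM in c-Jun MEF, 112.7 CPM in c-JunDN MEF, 198.7 CPM in Jdp2 MEF and 37.2 CPM in Oct4 MEF, against 136.9 CPM in DR MEF. It was 3.19-fold lower with c-Jun (2.47 to 4.14) and 3.68-fold lower with Oct4 (2.82 to 4.86). Among these 5 MEF libraries, Nab2 and Egr1 were thus lowest in the same pair. In ESC without dox, both cofactors were lower than in WT ESC (2 of 2 measured, median log2 change -2.39), as was Egr1, where 18.3% of all measured genes were lower. With dox both cofactors were higher than without, where 21.3% of all measured genes were higher, and Egr1 had 3 counts. Nab1 was 8.23-fold higher (4.17 to 18.5) and Nab2 4.69-fold higher (1.38 to 24.8).

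SRF partners, CREB regulators and NR4A partners were counted in the same way. Of 6 measured genes of SRF and its cofactors, 3 were higher and 0 lower in ESC with dox, where 21.3% of all measured genes were higher and 19.7% lower, and 0 passed the limit in the 7 other matched comparisons. Elk3 was 20.7-fold higher in ESC with dox (10.3 to 48.6), Mkl1 2.96-fold higher (2.26 to 3.93) and Mkl2 2.62-fold higher (1.95 to 3.57). Of 6 CREB regulators, Crtc3, a CREB coactivator, was 15.7-fold higher in ESC with dox (5.93 to 59.1). Crem, which encodes activators and repressors of CREB sites, was higher in c-Jun MEF, at 18.8 CPM, and in Oct4 MEF, at 18.1 CPM, against 6.17 CPM in DR MEF, where 8.22% of all measured genes were higher with c-Jun and 11.6% with Oct4. Creb1 itself passed the limit in none of the 8 matched comparisons. Of the RXR genes, whose products pair with NR4A1 and NR4A2, 2 were measured, and Rxrb was 2.21-fold lower in ESC with dox. Rxra stood at 63.4 CPM in c-Jun MEF, against 115.8 CPM in DR MEF, a 1.83-fold lower value.

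Other immediate early genes did not move as one group with the 8. In ESC with dox, 23 of 38 measured genes of a list of 41 were higher and 3 lower, with a median log2 change of 1.91, where 21.3% of all measured genes were higher and 19.7% lower. Of 8 AP-1 genes, 6 of 6 measured were higher, the introduced Jun among them. Hbegf, an EGF receptor ligand, was 37.9-fold higher, Dusp5, a phosphatase of ERK, 14.5-fold higher, and Trib1, a pseudokinase, 4.32-fold higher. Fosl2, an AP-1 gene, had 875 counts with dox, against 1 without. In Jdp2 MEF, 0 of 7 measured AP-1 genes were higher and 3 (Fosb, Fosl2 and Atf3) lower, where 5.98% of all measured genes were higher and 6.37% lower. Fosl2 was 6.69-fold lower there. In c-Jun MEF, 10 of 39 other immediate early genes were higher and 7 lower, and 2 of 8 AP-1 genes, Fosl1 and the introduced Jun, were higher and 1 (Fos) lower, where 8.22% of all measured genes were higher and 9.69% lower. Trib1 was 5.00-fold higher and Fosl1 12.3-fold higher, on 47 and 4 counts. In KSM cells with Oct4, 1 of 37 was higher and 14 lower, with a median of -0.71, where 4.74% of all measured genes were higher and 6.8% lower. No test of a difference between lists was possible with 1 library per group.

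**Figure D4:**
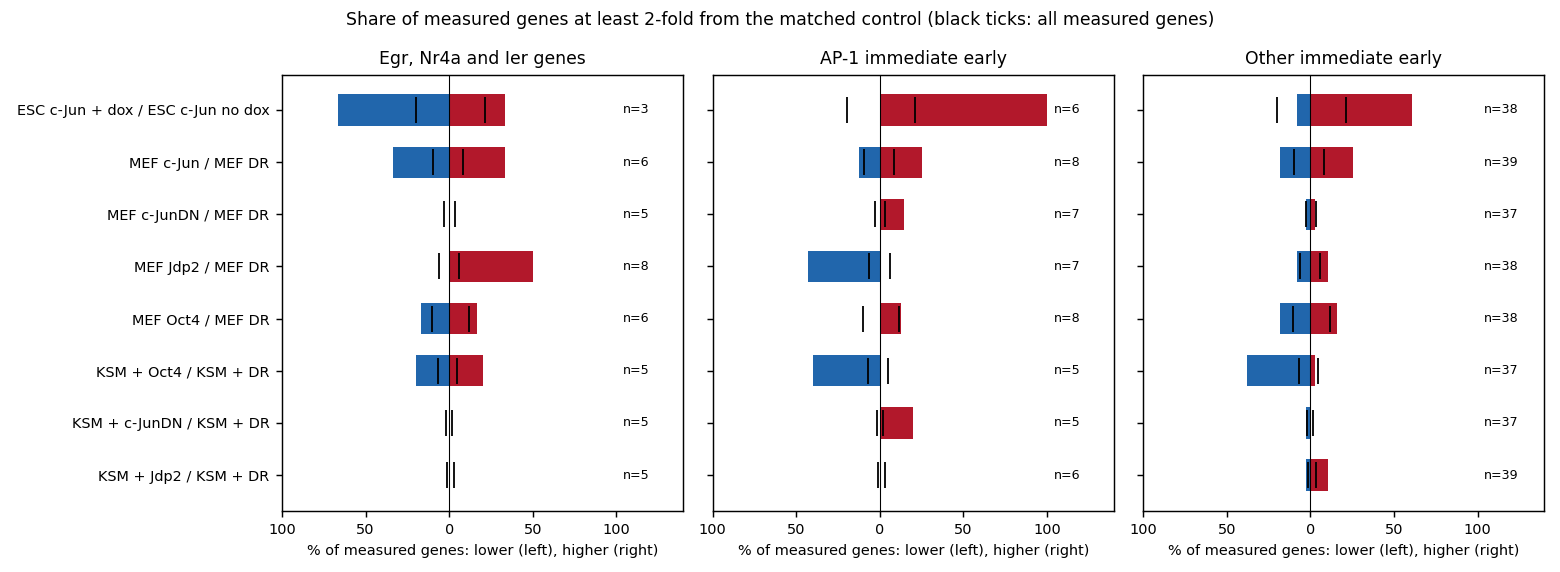
Share of measured genes at least 2-fold lower (left) and higher (right) than in the matched control, in percent, for the 8 genes, the AP-1 genes and the other immediate early genes; black ticks are the shares over all measured genes, and n is the number measured. In Jdp2 MEF, 4 of 8 Egr, Nr4a and Ier genes lie on the higher side and 3 of 7 AP-1 genes on the lower side. Of the 8 genes, Egr2, Egr3 and Nr4a3 were measured there only through Jdp2 MEF.

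Likeness over the 13 libraries was ranked among 11767 genes, from which unnamed gene models and the 8 genes themselves were left out. Of the genes that remained, Vhl followed Egr1 most closely on log2(CPM + 1), with a Pearson correlation of 0.94. Uggt1 (0.92) and Spg20 (0.92) came next. Closest to Egr2 were Gcap14 (0.94), Pdk4 (0.94) and Tmf1 (0.93). Closest to Nr4a1 were Tmco4 (0.90), Cep63 (0.81) and Ddx24 (0.81). Their rank (Spearman) correlations with Nr4a1 were 0.73, 0.76 and 0.40, the last being the lowest among the closest genes named here. Closest to Nr4a2 were Enpp1 (0.90), Prkaa1 (0.90) and Pafah1b2 (0.89). Ier2 was followed most closely by Acy1 (0.96), Dbt (0.95) and Dcps (0.94), and Ier3 by Psd3, Adam10 and Lrrc20 (each 0.91). Among the 8 genes themselves, Egr1 and Egr2 had a correlation of 0.83, and Ier2 and Ier3 one of -0.80. Egr2 values include the Oct4 MEF library with its different gene model; over the 12 other libraries Egr2 had 0.95 with Gcap14, 0.94 with Pdk4, 0.93 with Tmf1 and 0.84 with Egr1. Egr3 and Nr4a3 did not reach 5 CPM in 3 libraries and were left out of the search. The libraries fall into 3 cell settings of 3, 6 and 4 libraries and differ in depth, so these values are descriptions.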

How the data were processed

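Per the labels' protocols, total RNA came from a Trizol extraction and the library kit was Illumina TruSeq. The authors deposited RSEM expected counts per gene, made with RSEM 1.1.21 on mm9 per the submitters' processing notes. These counts were rounded here. The authors also deposited a transcript fraction per gene in 12 libraries, which sums to 1 and was scaled here to TPM, and TPM and FPKM in the Oct4 MEF library, of which the deposited FPKM was not used. The deposited peak lists hold a score per peak on mm9 and were not used, since no mm9 annotation was used here.

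The 12 libraries list RefSeq-based symbols and the Oct4 MEF library 27729 Ensembl identifiers. In all, 19788 genes were shared, holding 97.1% of its counts. No 2 libraries were identical. Counts on the shared genes were scaled by TMM in edgeR 4.0.16 (R 4.3.3) and are called CPM. Ratios carry exact conditional binomial intervals from scipy 1.17.1, and levels exact Poisson intervals. With 0 counts on 1 side, a fold is a bound against 3 counts; with both sides at 3 counts or fewer none is given. The same rule over all measured genes gave the background shares. The steps were tested on simulated data. Of each list, the 3 or fewer measured genes whose absolute change is largest on average are named. Other genes are named where they make up a count of 5 or fewer. The 3 closest genes over at least 3 libraries at 5 CPM were ranked by correlation, without unnamed gene models and the 8 genes. Alternatives were DESeq2 1.42.0 size factors, total counts, TPM, other pseudocounts, filters and folds, and WT as control; the restriction to matching gene models was added after seeing the data. The 8 genes and the lists were chosen with earlier results of these data known.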

Additional observations from a re-analysis of the deposited data

How the results depend on the processing

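No paired analysis was possible because each group has 1 library. Log2 changes were followed for genes with more than 3 counts in either library of a matched comparison, some of them below 5 CPM in both. Their counting intervals were put on the log2(CPM + 1) scale. With DESeq2 size factors, with total counts and with a pseudocount of 0.5, 48 of 48 changes stayed within their interval. The number was 47 of 48 with TPM and 47 of 48 with a pseudocount of 5. All these settings use the same reads, and the intervals are wide at low counts. Staying within them is therefore a weak check. The counts of genes past the limit are small, so 1 gene moves them. With a minimum of 20 CPM, the higher count was 0 in ESC with dox, 1 in c-Jun MEF, 2 in Jdp2 MEF, 0 in Oct4 MEF and 0 in Oct4 KSM cells. At 3-fold, it was 1 in c-Jun MEF, 2 in Jdp2 MEF and 0 in Oct4 KSM cells, and the lower count was 0 in Oct4 MEF and 0 in Oct4 KSM cells. In Oct4 KSM cells the higher count was also 0 with DESeq2 size factors and with TPM, and both counts were 0 with a pseudocount of 5. In c-JunDN MEF the lower count was 1 with DESeq2 size factors and with a pseudocount of 0.5. With a minimum of 1 CPM or no filter, the higher count was 1 in KSM cells with c-JunDN and 1 with Jdp2. With matching gene models only, the higher count in Oct4 MEF was 0, and with TPM it was 1, with Egr2 in place of Nr4a3.

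With WT as control, ESC with dox had 0 higher and 4 lower, c-Jun MEF 4 lower, c-JunDN MEF 4 lower, Jdp2 MEF 1 higher and 1 lower, and Oct4 MEF 3 lower, Egr2 among them on a gene model that differs; with matching models only, Oct4 MEF had 0 higher and 2 lower. Of the log2 changes of the same genes, 17 of 28 stayed within their interval with WT MEF as control, 10 moved and 1 changed sign. With WT ESC, 3 of 4 stayed. Egr1 in Jdp2 MEF changed sign with WT MEF as control, to a log2 change of -0.31, against 1.08 with DR. Under TPM the median of all genes moved to 0.29 in ESC with dox, against -0.09, and to 0.20 in Oct4 MEF, against 0.01, and the higher share of calls to 72.5%, against 52.0%, and to 67.6%, against 53.1%. The causes were not tested. The WT comparison with matching models and the correlations without Oct4 MEF were chosen after seeing the data. In the 11 shallower libraries, 3 counts stand for 0.905 to 1.61 CPM, which limits Egr2, Egr3, Nr4a2 and Nr4a3 most.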
